A study of Mus musculus with 30 samples.

Results

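The interferon regulatory factors are a family of DNA-binding proteins that switch interferon and immune genes on or off. The members described here were Irf1, Irf2, Irf3, Irf4, Irf5, Irf7, Irf8 and Irf9, chosen by name. They are 8 of the 18193 genes that had a probe set of their own on the arrays. A probe set is a group of short probes for 1 transcript region, and every set annotated to a member alone was used, 14 in all: 4 for Irf3, 2 each for Irf4, Irf5 and Irf8, and 1 each for Irf1, Irf2, Irf7 and Irf9. All 14 passed the filter on dim signals.

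RNA was measured in 30 cultures of mouse B cells on Affymetrix expression arrays, in 10 groups of 3. Mature B cells that had not been activated were enriched from spleens of the C57BL/6, B1-8i background, in which a rearranged heavy chain gene is knocked in. KO cells came from Irf4-/- mice that carried a doxycycline-inducible Irf4 gene, and wild-type cells came from Irf4+/+ mice. KO cells were taken unstimulated on day 0, or on days 1 and 3 of culture with 0, 16 or 100 ng/mL doxycycline, called zero, low and high DOX. Wild-type cells were taken on days 0, 1 and 3, without doxycycline. All cultures of days 1 and 3 held CD40L with the cytokines IL-2, IL-4 and IL-5, a mixture that drives B cells towards plasma cells and class switching. Every KO group was Irf4-/- and carried the inducible gene, so KO cells without doxycycline are Irf4-/- cells whose inducible gene was not switched on by the drug. The sources used here do not name the promoter that drives the inducible gene. Each replicate was a separate mouse, per the series text. The labels do not say whether KO cultures of different days and doses shared mice.

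Irf3 and Irf7 lie dormant in the cytoplasm until kinases downstream of nucleic acid sensors phosphorylate them, after which they turn on type I interferon genes. Secreted interferon then acts through its receptor on the complex ISGF3, of which Irf9 is a part, to induce interferon response genes, Irf7 among them. Irf1 is induced by interferon gamma and activates genes that Irf2, its antagonist, can repress. Irf5 works downstream of Toll-like receptors. Irf4 and Irf8 are the lymphoid and myeloid members: they bind DNA with the Ets factors PU.1 and Spi-B, and in B cells Irf4 is required for class switching and plasma cells while Irf8 is linked to the follicular and germinal centre programmes.

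On day 3, 5 members had a set called higher in KO zero DOX than in wild type and lower at high than zero DOX. The promoters of 4 of these members are printed here, to show which matches to the 4 motifs named below each holds. The fifth, Irf5, has none of them in its window, like Irf7. Over the 10 groups the brightest sets of these 5 members did not move as 1: correlations of their group means, which share arrays, ran from -0.30 between Irf2 and Irf7 to 0.72 between Irf2 and Irf8. Each printed promoter is the 250 bases before the RefSeq start of the gene in build GRCm38.p6, read 5′ to 3′ on the gene's own strand. Capitals mark matches to 4 motifs searched on both strands: the interferon-stimulated response element (GAAA, 2 bases of any kind and GAAA), the gamma-activated site TTCNNNGAA, its Stat6 type (TTC, 4 bases of any kind and GAA), and the Ets-Irf composite element (GGAA, 2 bases of any kind and GAAA).
Irf1 promoter, chr11:53769764-53770013, plus strand: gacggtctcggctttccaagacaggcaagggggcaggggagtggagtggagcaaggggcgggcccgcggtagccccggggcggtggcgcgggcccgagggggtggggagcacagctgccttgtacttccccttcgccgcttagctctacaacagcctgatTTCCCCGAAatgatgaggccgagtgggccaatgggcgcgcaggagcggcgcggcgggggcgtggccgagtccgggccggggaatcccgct
Irf2 promoter, chr8:46739495-46739744, plus strand: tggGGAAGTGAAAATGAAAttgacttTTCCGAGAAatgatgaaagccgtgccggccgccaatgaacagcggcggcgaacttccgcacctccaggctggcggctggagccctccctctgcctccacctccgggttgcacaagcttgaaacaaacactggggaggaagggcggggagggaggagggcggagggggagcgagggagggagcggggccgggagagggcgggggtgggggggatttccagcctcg
Irf7 promoter, chr7:141266425-141266674, minus strand: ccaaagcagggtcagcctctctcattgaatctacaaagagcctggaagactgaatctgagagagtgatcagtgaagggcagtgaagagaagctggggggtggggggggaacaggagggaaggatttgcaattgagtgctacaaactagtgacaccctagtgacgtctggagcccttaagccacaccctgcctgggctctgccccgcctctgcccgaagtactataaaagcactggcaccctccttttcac
Irf8 promoter, chr8:120736108-120736357, plus strand: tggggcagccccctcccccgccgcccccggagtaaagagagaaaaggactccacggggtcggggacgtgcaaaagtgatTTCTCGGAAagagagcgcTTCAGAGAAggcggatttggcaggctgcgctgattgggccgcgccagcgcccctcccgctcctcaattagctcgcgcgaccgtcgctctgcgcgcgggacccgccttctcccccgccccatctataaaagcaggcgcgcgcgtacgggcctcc
The capitals of Irf1 are 1 gamma-activated site, TTCCCCGAA, from base -90 to base -82 before the start. Irf2 holds the composite element GGAAGTGAAA at base -247, which overlaps the response element GAAAATGAAA at base -241, and then the gamma-activated site TTCCGAGAA at base -224. Irf8 holds the gamma-activated sites TTCTCGGAA at base -171 and TTCAGAGAA at base -153. No letters of the 4 motifs were found in the window of Irf7, nor in those of Irf3, Irf4, Irf5 and Irf9. All 8 members matched the RefSeq table, with 11 windows in all, because Irf1, Irf8 and Irf9 have a second start, and no match lay in these second windows. Of 32851 windows of the same length, 2.98% held the response element, 7.02% the gamma-activated site, 5.85% its Stat6 type and 2.3% the composite element. The matches describe letters in these windows and no binding was measured.

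Values are given as log2 levels, log2(intensity + 16), and differences are on the same scale, the group named first minus the other, with the standard error (SE) from limma. A set is called where limma's p, adjusted over 26095 tested sets, is under 0.05. No 2 arrays held identical values, and array medians lay between 171 and 199.7 in intensity. 2 day 1 arrays went against their labels by the inducible Irf4 signal, those labelled KO zero DOX replicate 2 and KO low DOX replicate 2. Day 1 results are with all arrays unless they are said to be without these. For the gene lists and the cell markers, day 1 values are given with all arrays only. Markers of other cells differed too. The sum of 14 myeloid markers lay between 8866 and 17554 on KO zero DOX day 3 arrays, between 2369 and 3127 on KO high DOX day 3 arrays and between 2728 and 2993 on wild-type day 3 arrays. On day 0 it lay between 7883 and 15377 in KO cells and between 3413 and 3678 in wild-type cells. In RNA of a whole culture, fewer cells of a type and less RNA per cell cannot be told apart. B cell markers were present in every group, with sums from 34464 upwards over 7 markers.

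Irf4, knocked out by genotype and put back as an inducible gene, had sets that behaved differently. The set 1421174_at followed doxycycline. On day 3 it had log2 levels of 7.68, 7.34 and 7.49 with zero DOX, 13.09, 12.94 and 12.99 with low DOX, 13.66, 13.56 and 13.53 with high DOX, and 7.35, 7.39 and 7.23 in wild-type cells. All 6 arrays with doxycycline lay far above the others, and the low and high dose ranges did not overlap. The difference was 6.08 (SE 0.63, limma adjusted p = 2.53e-08) for high against zero DOX and 5.50 (SE 0.63, limma adjusted p = 4.73e-07) for low against zero DOX. Between high and low DOX it was 0.58 (SE 0.63, limma adjusted p = 0.658). The SE of this set is that large because it takes in the spread of the day 1 arrays.

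On day 1 the same set had 7.84, 10.77 and 7.80 with zero DOX, 11.17, 7.69 and 10.89 with low DOX, 13.10, 12.68 and 12.85 with high DOX, and 7.92, 7.89 and 7.64 in wild-type cells. Replicate 2 of the arrays labelled zero DOX sat among the low DOX values and replicate 2 of the arrays labelled low DOX sat among the zero DOX values. With all arrays, low and zero DOX differed by 1.11 (SE 0.63, limma adjusted p = 1) and high and zero DOX by 4.08 (SE 0.63, limma adjusted p = 0.000858). Without those 2 arrays the high against zero DOX difference was 5.06 (SE 0.12, limma adjusted p = 1.75e-17). The low against zero DOX difference was then 3.21 (SE 0.13, limma adjusted p = 1.51e-12). The 2 arrays were picked by their levels on this same set, so its values without them are descriptive and these p-values are no test of it. The plot of both sets shows the exchange of levels.

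**Figure D1:**
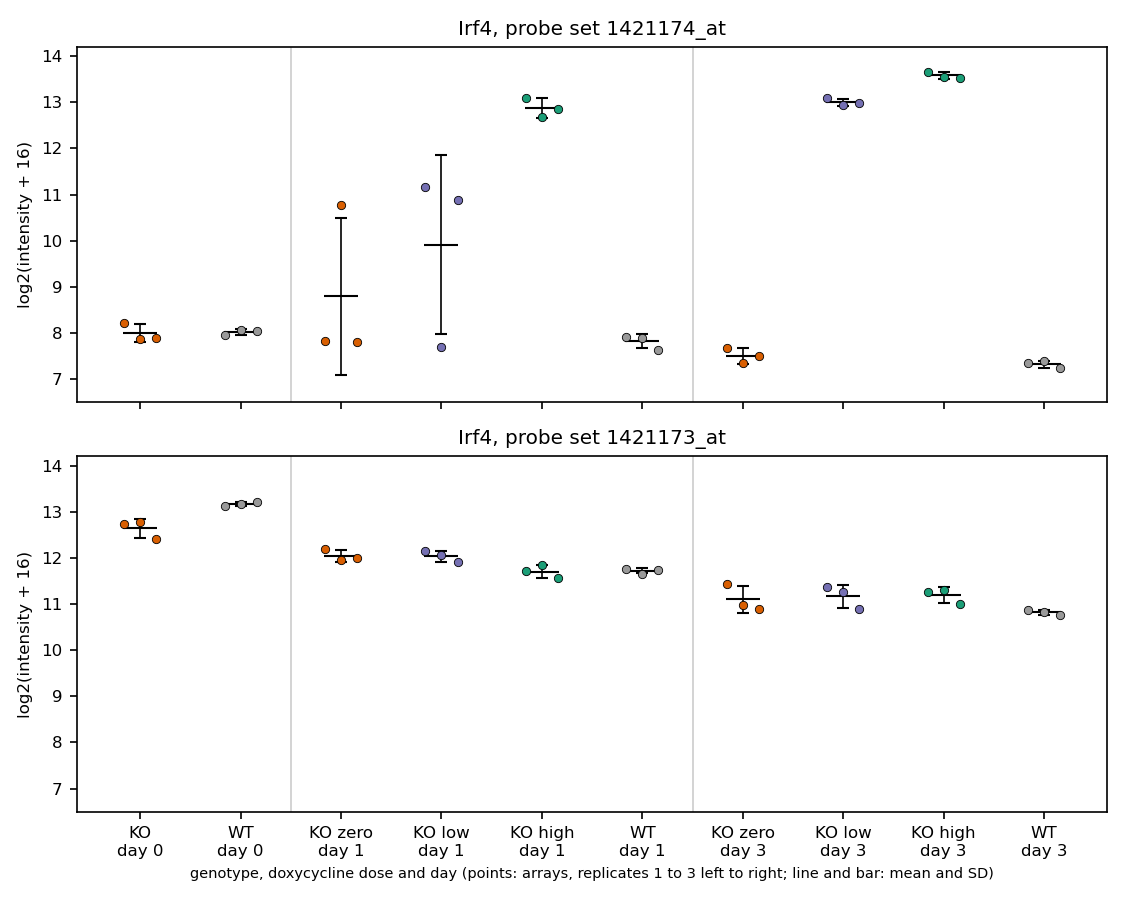
Log2(intensity + 16) of the 2 Irf4 probe sets on each of the 30 arrays, by genotype (KO or WT, wild type), doxycycline dose and day, with the mean and SD of each group. The upper set is at 12.68 or more on every high DOX array and on every low DOX day 3 array, while the lower set is highest on day 0 and declines with time at every dose.

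The other set, 1421173_at, did not rise with the dose. On day 3 it had 11.44, 10.98 and 10.89 with zero DOX, 11.37, 11.26 and 10.89 with low DOX, 11.27, 11.31 and 11.00 with high DOX, and 10.88, 10.82 and 10.77 in wild-type cells. The KO ranges overlapped each other and lay just above wild type, and the high against zero DOX difference was 0.09 (SE 0.13, limma adjusted p = 0.599). On day 1 it had 12.20, 11.96 and 11.99 with zero DOX, 12.15, 12.06 and 11.92 with low DOX, and 11.71, 11.84 and 11.56 with high DOX. The high DOX arrays lay below the zero DOX arrays without overlap, by a difference of -0.35 (SE 0.13, limma adjusted p = 0.255), which was called with the KO replicates as a block (limma adjusted p = 0.0134). Without the 2 day 1 arrays that went against their labels, and with no block, the difference was -0.39 and was not called (limma adjusted p = 0.335). On day 0 its levels were 12.75, 12.78 and 12.41 in KO cells and 13.14, 13.17 and 13.22 in wild-type cells, a difference of -0.53 (SE 0.13, limma adjusted p = 0.0032). It declined with culture, with day 1 minus day 0 at -1.45 and day 3 minus day 1 at -0.90 in wild-type cells. In KO zero DOX cells day 1 minus day 0 was -0.60, and the difference between the genotypes' changes was 0.86 (SE 0.18, limma adjusted p = 0.00094).

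Neither set was absent in KO cells without doxycycline relative to wild type, so the deletion itself could not be read from them. The sources used here place neither set on the transcript, and they do not name the deleted part. The wild-type cells, whose own Irf4 gene is intact, had the lowest mean of both sets on day 3. Results below therefore speak of dose and genotype as labelled, not of an Irf4 level common to both genotypes.

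Activation moved most of the transcriptome of wild-type cells, and the family about as often as other genes. Between day 1 and day 0, 11 of 14 member sets were called, 2 higher and 9 lower, where 80.1% of all tested sets were called, 31.7% higher and 48.4% lower. With arrays centred on their medians 6 member sets were called. Irf9 and Irf1 were the genes whose sets rose, Irf1 by 0.29 (SE 0.11, limma adjusted p = 0.0184), a call lost without wild-type day 0 replicate 1 or 2 or day 1 replicate 3, at 0.20 to 0.25. Irf2 fell most after the Irf4 set above, and both Irf8 sets fell. Between day 3 and day 1, 9 sets were called, 6 higher and 3 lower, where 65.4% of all sets were, 38.6% higher and 26.8% lower.

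Irf9, the DNA-binding part of ISGF3, had 10.88, 10.87 and 10.75 on day 1 and 10.21, 10.31 and 10.32 on day 0 in wild-type cells, a difference of 0.55 (SE 0.07, limma adjusted p = 2.13e-07). In KO zero DOX cells it had 10.84, 10.86 and 10.98 on day 1, against 10.28, 9.99 and 10.19 on day 0, a difference of 0.74 (SE 0.07, limma adjusted p = 1.84e-09). The ranges of the days did not overlap in either genotype, and the test of the difference between the changes gave 0.18 (SE 0.10, limma adjusted p = 0.148). Irf2, which competes with Irf1 for the same elements, had 11.11, 11.12 and 11.07 on day 1 and 12.24, 12.21 and 12.19 on day 0 in wild-type cells, a difference of -1.11 (SE 0.06, limma adjusted p = 4.55e-14). By day 3 it had partly recovered, to 11.75, 11.77 and 11.84. Its probe set is of a kind whose probes can match more than 1 transcript, as is the Irf3 set 1426111_x_at, so these levels are less certain.

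Irf8, like Irf2, was lowest on day 1 in wild-type cells, but on day 3 both its sets lay above their day 0 levels, where Irf2 stayed below. Its brighter set, 1448452_at, had 12.86, 12.88 and 12.82 on day 0, 12.58, 12.54 and 12.60 on day 1, and 13.13, 13.12 and 13.20 on day 3 in wild-type cells. The other set, 1416714_at, fell by 0.46 between days 0 and 1 and was 0.84 (SE 0.08, limma adjusted p = 1.44e-09) higher on day 3 than on day 1. The day 1 group was the lowest of the 3 days on both sets, with no overlap. When each array is centred on its median, all sets together shift by 0.16 between days 0 and 1, and the day 1 call of 1448452_at is lost (-0.12, limma adjusted p = 0.0903), as are those of the brighter Irf3 sets and of both Irf5 sets, with 0.00 for the bright one.

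The 4 Irf3 sets disagreed in size and in part in direction. Sets 1416898_a_at and 1426111_x_at, the brighter ones, had day 1 minus day 0 differences of -0.24 and -0.25 in wild-type cells and fell again by day 3. The dim set 1438721_a_at fell by 0.79 (SE 0.12, limma adjusted p = 3.24e-06) by day 1, with 8.22, 8.14 and 8.18 on day 1 and 9.24, 9.06 and 8.60 on day 0. Set 1435271_at differed by 0.03 between those days (limma adjusted p = 0.796) and had a day 3 minus day 1 difference of 0.24, a call lost on leaving out any of 5 of the 6 arrays (limma adjusted p from 0.0616 to 0.0976). Irf3 is regulated mainly by phosphorylation. The group means of its sets spanned 0.50 on 1416898_a_at, 0.57 on 1426111_x_at, 0.71 on 1435271_at and 1.21 on 1438721_a_at on the log2 scale.

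Irf7, the interferon-inducible amplifier of type I interferon production, showed the widest genotype difference among the members. In KO zero DOX cells it had 10.99, 10.56 and 10.59 on day 0, 12.74, 12.63 and 12.35 on day 1, and 12.37, 12.37 and 12.06 on day 3. In wild-type cells it had 10.09, 10.28 and 10.33 on day 0, 10.57, 10.64 and 10.04 on day 1, and 10.43, 10.31 and 10.21 on day 3. Every stimulated KO zero DOX array lay above every wild-type array. The wild-type days overlapped, with a day 1 minus day 0 difference of 0.18 (SE 0.18, limma adjusted p = 0.374).

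The KO zero DOX minus wild-type difference of Irf7 was 2.16 on day 1 (SE 0.18, a ratio of 4.46, limma adjusted p = 7.82e-09) and 1.95 on day 3 (SE 0.18, a ratio of 3.86, limma adjusted p = 2.13e-08). Without the 2 doubtful arrays the day 1 difference was 2.13. On day 0 the difference was 0.48 (SE 0.18, limma adjusted p = 0.0522), with no overlap between the genotypes. With sex as a term it was 0.25 (limma adjusted p = 0.231). The change of the genotype difference between days 0 and 1 was 1.68 (SE 0.26, limma adjusted p = 5.36e-05).

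**Figure D2:**
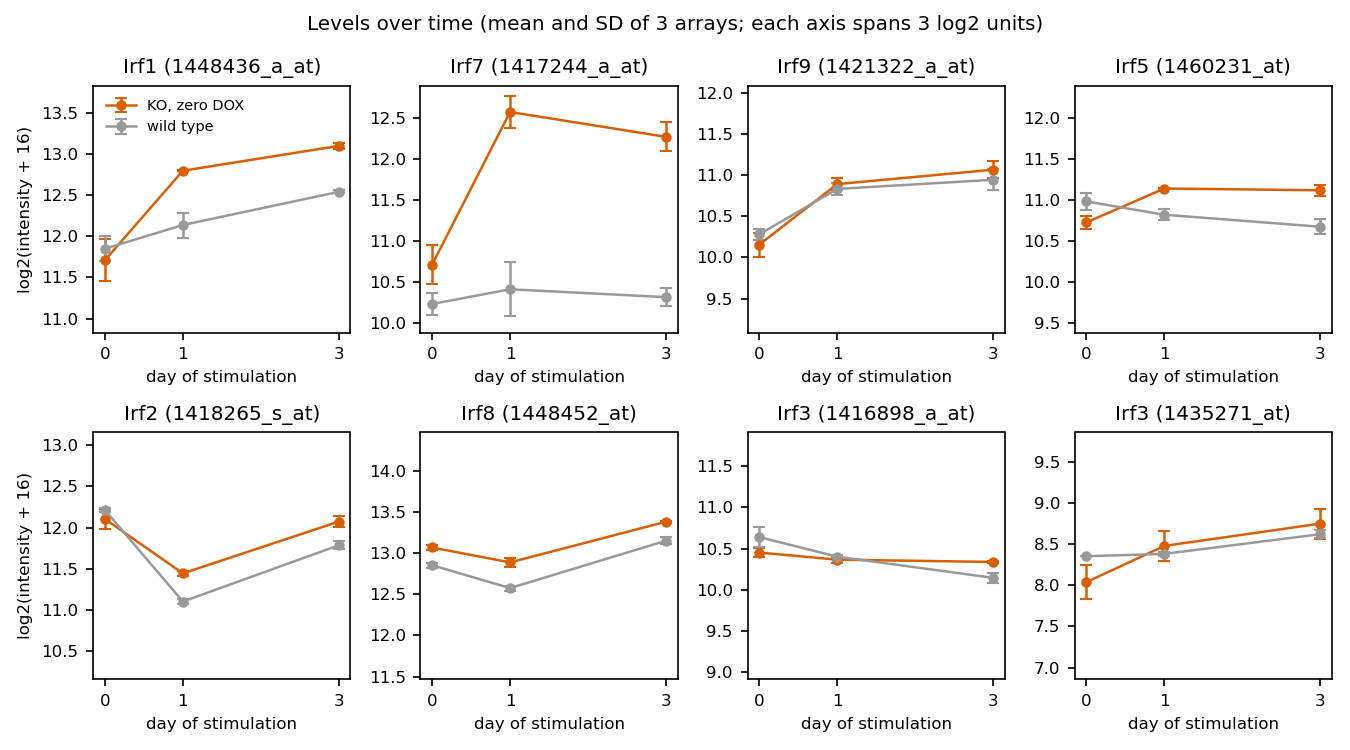
Log2(intensity + 16) over days 0, 1 and 3 of stimulation for 8 probe sets, in KO cells without doxycycline and in wild-type cells, as mean and SD of 3 arrays. The genotypes part most on Irf7, at 2.16 on day 1, start close together on Irf1 and Irf2 and then separate, and stay together on Irf9.

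Irf1, the activator of interferon gamma response genes, had overlapping levels on day 0, with 11.51, 11.62 and 12.00 in KO cells and 11.75, 11.77 and 12.02 in wild-type cells. On day 1 it had 12.80 on each of the 3 KO zero DOX arrays and 12.08, 12.02 and 12.31 in wild-type cells. The difference was 0.66 (SE 0.11, limma adjusted p = 4.63e-05), with no overlap. On day 3 the levels were 13.07, 13.15 and 13.09 in KO zero DOX cells and 12.52, 12.55 and 12.56 in wild-type cells, a difference of 0.56 (SE 0.11, limma adjusted p = 0.000295). Irf1 rose with activation in both genotypes, by 1.09 in KO cells and 0.29 in wild-type cells at day 1, and the changes differed by 0.80 (SE 0.15, limma adjusted p = 0.000399).

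Irf2, Irf5 and Irf8 were also higher in KO zero DOX cells after stimulation, by less, and 1 Irf8 set was so before it. Irf2 had 12.03, 12.15 and 12.04 in KO zero DOX cells on day 3, against 11.75, 11.77 and 11.84 in wild-type cells, a difference of 0.29 (SE 0.06, limma adjusted p = 0.000766). The Irf8 set 1448452_at had 13.39, 13.37 and 13.40 in KO zero DOX cells, against 13.13, 13.12 and 13.20 in wild-type cells, a difference of 0.23 (SE 0.06, limma adjusted p = 0.00222). The groups did not overlap for either gene, and the second Irf8 set gave 0.26 (SE 0.08, limma adjusted p = 0.0103). On day 0 the set 1448452_at already had 13.03, 13.09 and 13.09 in KO cells, against 12.86, 12.88 and 12.82 in wild-type cells. That difference was 0.22 (SE 0.06, limma adjusted p = 0.00483), with no overlap, and 0.26 with sex as a term. It was not called when the day 0 arrays were fitted alone (limma adjusted p = 0.0682). The second set differed by 0.13 on day 0 (limma adjusted p = 0.202). Irf8 is also abundant in macrophages and dendritic cells, and the myeloid sums above differed in the same comparison. Markers of further cell types differed as well between KO zero DOX and wild-type cells. Of 6 natural killer markers, 4 were higher on day 0, 4 on day 1 and 6 on day 3, with medians of 0.92, 0.59 and 1.58. Of 6 T cell markers, 3 were higher on day 0, 6 on day 1 and 3 on day 3, with medians of 0.36, 0.65 and 0.50. Over all tested genes, 12.8% were higher on day 0, 33.4% on day 1 and 18.8% on day 3. All 7 plasma cell markers were lower on day 3, with a median of -2.33, where 15.7% of all tested genes were lower. The part of these cells in the genotype differences of the family and of the interferon lists was not tested.

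Irf5, the Toll-like receptor responder, had a bright and a dim set that went opposite ways on day 3. The bright set 1460231_at had 11.07, 11.20 and 11.09 in KO zero DOX cells and 10.57, 10.75 and 10.69 in wild-type cells, a difference of 0.44 (SE 0.07, limma adjusted p = 1.48e-05). The dim set 1449678_at had 8.27, 8.39 and 8.63 in KO zero DOX cells and 8.71, 8.70 and 8.65 in wild-type cells, a difference of -0.26 (SE 0.09, limma adjusted p = 0.0368). This second call did not survive the removal of any of 4 single arrays, KO zero DOX replicates 1 and 2 and wild-type replicates 1 and 2, with limma adjusted p from 0.0921 to 0.197. On day 0 both sets were lower in KO cells, at -0.25 for the bright one and -0.29 for the dim one, whose call was lost without KO replicate 1 or 2 or wild-type replicate 2 or 3 (-0.28 to -0.24). On the bright set the genotype difference changed sign between days 0 and 1, by 0.57 (SE 0.09, limma adjusted p = 9.4e-05).

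Irf9 was not called between the genotypes on any day, and the brighter Irf3 sets differed by no more than 0.23. For Irf9 the KO zero DOX minus wild-type difference was 0.06 (SE 0.07, limma adjusted p = 0.525) on day 1 and 0.12 (SE 0.07, limma adjusted p = 0.199) on day 3. The dim Irf3 sets differed by more. Set 1438721_a_at had 8.49, 8.45 and 8.61 in KO cells on day 0, against 9.24, 9.06 and 8.60 in wild-type cells, a difference of -0.45 (SE 0.12, limma adjusted p = 0.00716). That call was lost without wild-type replicate 1 (-0.32, limma adjusted p = 0.0667). On day 1 it had 7.74, 7.77 and 7.89 in KO zero DOX cells, against 8.22, 8.14 and 8.18 in wild-type cells. The day 1 difference was -0.38 (SE 0.12, limma adjusted p = 0.0142), with no overlap, and -0.37 (limma adjusted p = 0.0467) without the 2 doubtful arrays. Without KO zero DOX replicate 1 it was not called (-0.35, limma adjusted p = 0.0531). The groups overlapped on day 0, and on day 3 the difference was 0.05 (limma adjusted p = 0.787). Set 1435271_at differed by -0.31 on day 0 (SE 0.10, limma adjusted p = 0.0203), a call lost without KO replicate 1, at -0.20, or wild-type replicate 2, at -0.32, and with sex as a term, at -0.21.

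The brighter Irf3 sets 1416898_a_at and 1426111_x_at were lower in KO cells on day 0, at -0.19 and -0.20, and higher on day 3, at 0.19 and 0.23. The day 0 calls were lost without wild-type replicate 2, at -0.13 and -0.16, and that of 1426111_x_at also without KO replicate 1, at -0.15. The probes of 1426111_x_at can match other transcripts, and both sets moved together.

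Counted over the family, 8 of 14 sets were called between the genotypes on day 0, 1 higher and 7 lower, where 30.4% of all tested sets were called, 14.9% higher and 15.4% lower. On day 1, 9 were called, 8 higher and 1 lower, against 46.6% of all sets, 29.3% higher and 17.3% lower. Without the 2 doubtful arrays the day 1 count was 7, beside 37.9%. On day 3, 9 were called, 8 higher and 1 lower, against 34.8% of all sets, 19.2% higher and 15.6% lower. The median difference over all genes was 0.00 on day 3. The day 0 count rests on the pooled spread: fitted on the day 0 arrays alone, 1 set was called, and 4 were without wild-type day 0 replicate 2 and 5 without KO day 0 replicate 1. All KO replicates 1 and 2 were male by their sex-linked genes, while KO replicate 3 and all wild-type mice were female. With sex as a term, 6 sets were called on day 0, 8 on day 1 and 9 on day 3, where 26.5%, 51.3% and 35.6% of all sets were. The calls of Irf1, Irf2, Irf7, Irf8 and the bright Irf5 set were kept. No wild-type mouse was male, so the sex term rests on KO replicate 3 against KO replicates 1 and 2. It cannot be told apart from other differences of that replicate.

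**Figure D3:**
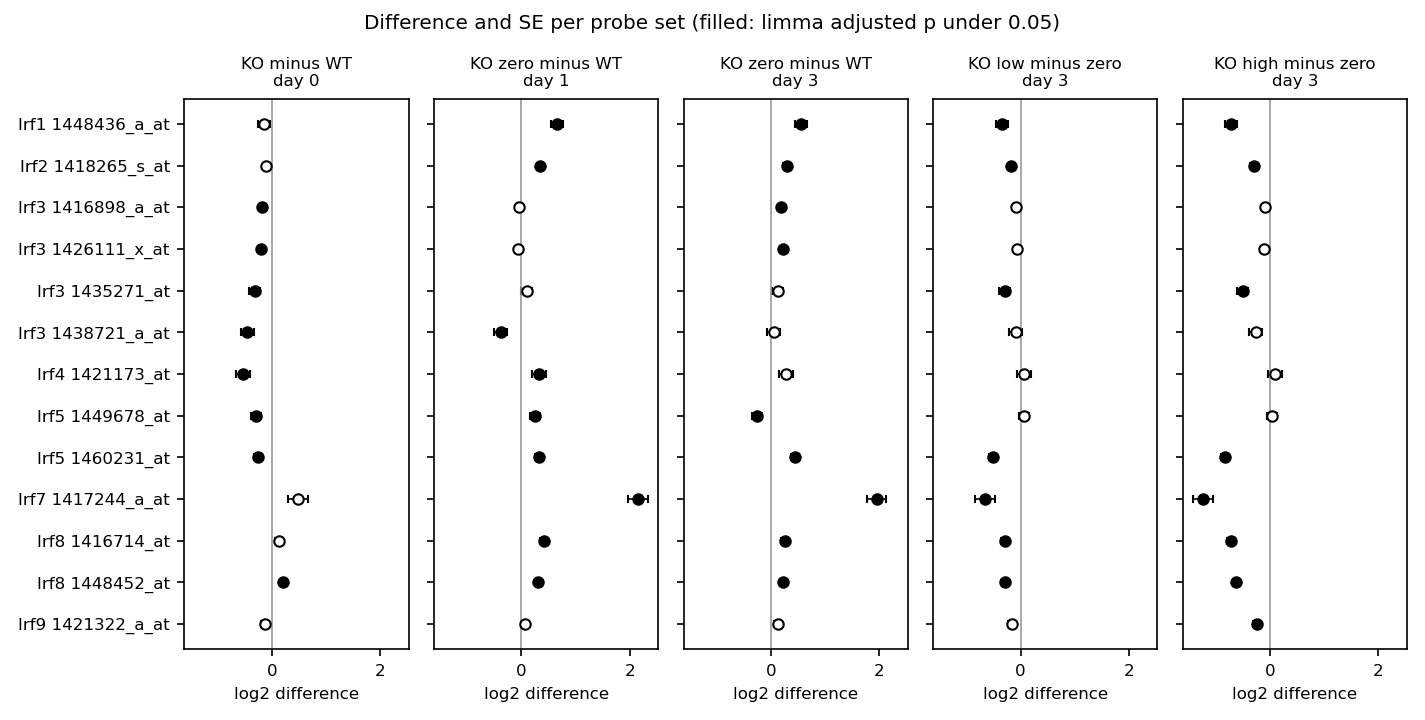
Log2 difference and SE of 13 member probe sets (all but the inducible Irf4 set) in 5 comparisons: KO minus wild type (WT) on days 0, 1 and 3, and low and high DOX minus zero DOX on day 3. Irf7 lies at 2.16 and 1.95 on days 1 and 3 in the genotype panels. The sets of Irf1, Irf2, Irf7 and Irf8 and the bright Irf5 set lie right of zero on days 1 and 3 and left of zero in both dose panels. In the day 0 panel Irf1, Irf2 and the bright Irf5 set lie left of zero.

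Doxycycline went with lower levels of 7 members on day 3. With high against zero DOX, 9 of 14 sets were called, 1 higher and 8 lower, where 45.5% of all sets were called, 21.7% higher and 23.8% lower. The set that rose was the inducible Irf4 one. The 8 that fell belonged to Irf1, Irf2, Irf3, Irf5, Irf7, Irf8 and Irf9. The zero DOX arrays enter this comparison and the genotype comparison alike, so the 2 are not independent.

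Irf5 1460231_at had 11.07, 11.20 and 11.09 at zero DOX, 10.45, 10.66 and 10.70 at low DOX, and 10.26, 10.29 and 10.28 at high DOX. The 3 ranges did not touch. High minus zero DOX was -0.84 (SE 0.07, limma adjusted p = 3.68e-10), low minus zero DOX -0.51 (SE 0.07, limma adjusted p = 3.29e-06) and high minus low DOX -0.33 (SE 0.07, limma adjusted p = 0.00179). At high DOX Irf5 was also below wild type, at a difference of -0.40 (SE 0.07, limma adjusted p = 4.28e-05).

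Irf8, which opposes Irf4 in the choice between the germinal centre and plasma cell fates, had 13.39, 13.37 and 13.40 at zero DOX, 13.08, 13.09 and 13.12 at low DOX, and 12.61, 12.82 and 12.82 at high DOX on set 1448452_at. High minus zero DOX was -0.63 (SE 0.06, limma adjusted p = 2.08e-09), and on the second set it was -0.73 (SE 0.08, limma adjusted p = 2.8e-08). Both sets stepped down at each dose without overlap. At high DOX Irf8 lay below wild type, at -0.40 and -0.47 on the 2 sets, and wild-type cells had 13.13, 13.12 and 13.20 on 1448452_at.

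Irf7 had 12.37, 12.37 and 12.06 at zero DOX, 11.57, 11.80 and 11.47 at low DOX, and 11.01, 11.37 and 10.70 at high DOX, and 10.43, 10.31 and 10.21 in wild-type cells. High minus zero DOX was -1.24 (SE 0.18, limma adjusted p = 5.76e-06) and low minus zero DOX -0.65 (SE 0.18, limma adjusted p = 0.00841). The doses did not overlap, and even at high DOX every array stayed above every wild-type array, by 0.71 in the mean (SE 0.18, limma adjusted p = 0.00357). High minus low DOX was -0.59 (SE 0.18, limma adjusted p = 0.0414), a call that was lost without any 1 of KO high DOX replicates 1 and 3 or KO low DOX replicates 1, 2 and 3, at -0.66 to -0.43.

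Irf1 had 13.07, 13.15 and 13.09 at zero DOX, 12.68, 12.85 and 12.74 at low DOX, 12.28, 12.58 and 12.28 at high DOX, and 12.52, 12.55 and 12.56 in wild-type cells. High minus zero DOX was -0.72 (SE 0.11, limma adjusted p = 7.88e-06), and the high DOX range spanned the wild-type values (difference -0.16, limma adjusted p = 0.276). Its antagonist Irf2 moved the same way by less, with 11.73, 11.79 and 11.79 at high DOX, against 12.03, 12.15 and 12.04 at zero DOX, a difference of -0.30 (SE 0.06, limma adjusted p = 0.000267). At high DOX Irf2 overlapped wild type, with a difference of -0.02 (SE 0.06, limma adjusted p = 0.877).

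**Figure D4:**
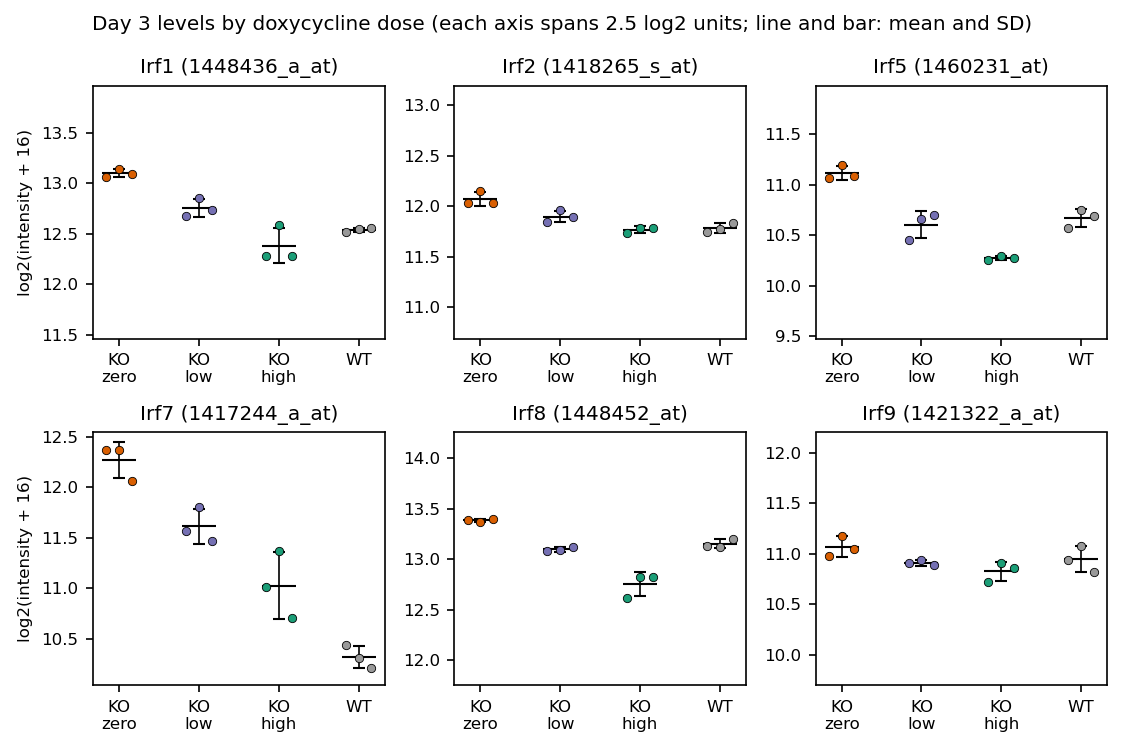
Log2(intensity + 16) on day 3 of 6 members at zero, low and high doxycycline in KO cells and in wild-type cells (WT), with points for arrays and the mean and SD. Irf1, Irf2, Irf5, Irf7 and Irf8 step down with dose without overlap, Irf9 does so only in part, and Irf7 is the one of the 6 whose high DOX arrays all stay above wild type.

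Irf9 fell by 0.24 at high against zero DOX (SE 0.07, limma adjusted p = 0.00803), with 10.72, 10.90 and 10.85 at high DOX, against 10.97, 11.18 and 11.05 at zero DOX. Without KO high DOX replicate 1 or without KO zero DOX replicate 2 the difference was -0.19 and was not called (limma adjusted p = 0.0606 and 0.0631). Among the Irf3 sets, 1435271_at alone was called, with 8.20, 8.29 and 8.24 at high DOX, against 8.55, 8.91 and 8.80 at zero DOX, a difference of -0.51 (SE 0.10, limma adjusted p = 0.000211). The other 3 Irf3 sets had differences between -0.27 and -0.10, so the Irf3 result rests on a dim set.

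In all, 7 sets of 6 genes had lower levels at each higher dose with no overlap between the 3 doses, those of Irf1, Irf2, Irf7, both of Irf8, the bright Irf5 set and Irf3 1435271_at. The same pattern was found in 8.63% of all tested sets, and the opposite one in 6.81%. Low against zero DOX called 8 of 14 sets, 1 higher and 7 lower, where 31.6% of all sets were (15.3% higher and 16.2% lower), and 5 without KO low DOX replicate 1 or KO zero DOX replicate 2. High against low DOX called 5, all lower, where 10.4% were called (5.46% higher and 4.93% lower), and 3 without KO high DOX replicate 1 or 3 or KO low DOX replicate 2 or 3. With the KO replicates as a block, Irf3 1435271_at joined them (-0.21, limma adjusted p = 0.0178).

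Markers of cell types, some of them also in the list of Irf4 and Irf8 target genes below, moved with dose as well. All 7 plasma cell markers were higher and all 7 B cell markers lower at high than at zero DOX on day 3, with median differences of 3.20 and -0.69. Over all tested genes 24% were higher and 23.8% lower. Of the myeloid markers 10 of 14 were lower and of the natural killer markers 6 of 6, with median differences of -1.98 and -1.82. Of 6 T cell markers 1 was higher and 3 were lower, and of 6 dendritic markers 1 was higher and 1 lower. Of 3 erythroid and platelet markers 2 were lower, with a median of -4.17. On day 3 the platelet genes Pf4 and Ppbp also differed between KO zero DOX and wild-type cells, at 2.81 and 2.09. The part of these shifts in the dose differences of the family was not tested.

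On day 1 the dose differences were already present in part. High against zero DOX called 5 of 14 sets, 1 higher and 4 lower, where 1.59% of all sets were called, 0.763% higher and 0.832% lower. Irf1 had 12.16, 12.40 and 12.09 at high DOX, against 12.80 on each zero DOX array, a difference of -0.58 (SE 0.11, limma adjusted p = 0.00529). The Irf8 set 1448452_at had 12.40, 12.56 and 12.56 at high DOX, against 12.85, 12.86 and 12.95 at zero DOX, a difference of -0.38 (SE 0.06, limma adjusted p = 0.000502). Neither pair of groups overlapped, and both calls held without the 2 doubtful arrays, when 4 sets and 0.885% of all sets were called. Without KO high DOX replicate 1 or KO zero DOX replicate 3 the count was 3, and fitted on these groups alone it was 0.

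Irf7 had 12.03, 12.29 and 11.56 at high DOX on day 1, against 12.74, 12.63 and 12.35 at zero DOX, a difference of -0.61 (SE 0.18, limma adjusted p = 0.109). With the KO replicates as a block the same difference had a limma adjusted p of 0.0107, and 7 member sets were called, where 3.93% of all sets were. The Irf4 set 1421173_at, described above, was among them. The block kept the 2 doubtful arrays. Without those arrays and with no block, Irf7 differed by -0.58 (limma adjusted p = 0.296) and was not called, nor was Irf4 1421173_at. Between low and zero DOX on day 1 no set in the whole table was called by limma (0%), and 0 of the 14 member sets had an unadjusted p under 0.05. Without the 2 doubtful arrays 1 set was called, Irf4 1421174_at, the set by which those arrays were picked.

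With high DOX, KO cells came close to wild type for some members and not for others. On day 3, 7 of 14 sets were called between KO high DOX and wild-type cells, 3 higher and 4 lower, where 37.4% of all sets were, 19.6% higher and 17.8% lower. The 3 higher were both Irf4 sets and Irf7, of which 1421173_at (0.37) was lost without KO high DOX replicate 1 or 2 or wild-type replicate 2 or 3, at 0.31 to 0.37, and the 4 lower were both Irf8 sets, the bright Irf5 set and Irf3 1435271_at. On day 1, 3 were called, where 37.5% of all sets were (25.0% higher and 12.5% lower): the inducible Irf4 set and Irf7 higher and Irf3 1438721_a_at lower. The last, at -0.36, was lost on leaving out any of 5 of the 6 arrays (-0.36 to -0.34). Irf7 differed by 1.55 on day 1 (SE 0.18, limma adjusted p = 2.53e-06). For Irf1, Irf2 and Irf9 no call was made on either day.

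Between days 1 and 3 the high DOX cells and the zero DOX cells had these values for Irf5 and Irf7. At high DOX, day 3 minus day 1 was -0.70 for Irf5 1460231_at (SE 0.07, limma adjusted p = 4.67e-09) and -0.94 for Irf7 (SE 0.18, limma adjusted p = 0.000167). At zero DOX the corresponding values were -0.02 (limma adjusted p = 0.82) and -0.30 (limma adjusted p = 0.185), and the difference between the doses' changes was not tested. Irf2 and Irf8 rose between these days at both doses. At high DOX 8 of 14 sets were called, 3 higher and 5 lower, where 45.9% of all sets were, 21.5% higher and 24.4% lower. At zero DOX 9 sets were called, 7 higher and 2 lower, where 49.1% were, 25.0% higher and 24.1% lower. Without the 2 doubtful arrays the zero DOX count was 6, beside 43.6%. The zero DOX count was 5 without replicate 2 of either day.

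In KO cells, day 1 against day 0 called 11 of 14 sets, 6 higher and 5 lower, where 69.8% of all sets were, 35.1% higher and 34.7% lower. The test of whether activation differed between the genotypes called 8 sets for day 1 against day 0, all of them more positive in KO cells, where 41.8% of all sets were called, 26.8% in that direction and 14.9% in the other. For day 3 against day 1 it called 3 sets, 2 more positive and 1 more negative, where 28.4% of all sets were, 11.0% and 17.4%. Irf7, Irf1 and the other Irf4 set, 1421173_at, had the widest of these day 1 differences, at 1.68, 0.80 and 0.86.

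The genes that act on the family or answer to it were taken as lists, each gene by its brightest tested set. Of 23 tested type I interferon response genes, the targets of ISGF3, all 23 were higher in KO zero DOX than in wild-type cells on day 1 and on day 3, with medians of 1.97 and 1.24. Over all tested genes, 33.4% were higher on day 1 and 18.8% on day 3, with medians of 0.07 and 0.00. On day 0 the list was mixed, with 5 higher and 7 lower, where 12.8% of all tested genes were higher and 17.9% lower. The largest day 3 difference was that of Xaf1, at 4.56 (SE 0.26, limma adjusted p = 4.75e-12), followed by Ifit3, an interferon-induced protein that restricts viruses, at 2.78 (SE 0.29, limma adjusted p = 9.31e-08). KO high DOX cells had all 23 higher than wild type on day 1 and 8 on day 3, with medians of 1.47 and 0.23. Of all tested genes 29.1% and 21.7% were higher there. At high against zero DOX on day 3, 20 of the 23 were lower and none higher, with a median of -0.95, where 24% of all tested genes were higher and 23.8% lower, with a median of 0.00. The lists that follow are read against the same shares for the dose, and against 18.8% higher and 15.7% lower between the genotypes on day 3. Some genes stand in several lists, so the lists are not independent. Ifih1 and Ddx58 are also listed as sensors, and Isg15 and Usp18 as feedback inhibitors.

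Of 19 tested interferon gamma and Irf1 response genes, 18 were higher in KO zero DOX cells on day 1 and 16 on day 3, and 16 were lower at high than at zero DOX. The chemokine genes Cxcl10 and Cxcl9, which draw in activated T cells, led on day 3, at 2.32 (SE 0.30, limma adjusted p = 2.55e-06) and 1.82 (SE 0.22, limma adjusted p = 7.95e-07). Of 11 tested interferon receptor and transducer genes, 7 were higher in KO zero DOX cells on day 3 and 7 lower at high DOX. They included the kinase genes Tyk2, at 0.45 between the genotypes, and Jak2, at -0.92 between the doses. Of 5 tested feedback inhibitors, 3 were higher in KO zero DOX cells, among them Socs1, which blocks Jak kinases, at 1.22 (SE 0.10, limma adjusted p = 4.22e-09).

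Of 18 tested sensors and kinases that activate Irf3, Irf5 and Irf7, 10 were higher and 1 lower in KO zero DOX cells on day 3, and 1 was higher and 11 lower at high DOX. Ifih1, a sensor of double-stranded RNA, differed by 1.69 between the genotypes (SE 0.19, limma adjusted p = 4.01e-07) and by -1.80 between high and zero DOX. Among 20 tested DNA-binding partners, 12 were higher and 1 lower in KO zero DOX cells, and 4 were higher and 10 lower at high DOX. Spib, the Ets partner of Irf4 and Irf8, differed by 0.63 and -1.03, and Bcl6, the germinal centre repressor, by -1.42 between high and zero DOX. Of 18 tested Irf4 and Irf8 target genes, 9 were higher and 9 lower at high DOX: the plasma cell genes Jchain, Bhlha15 and Prdm1 stood at 6.93, 4.68 and 3.20.

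The myeloid markers were followed over the same days. On day 0, 11 of 14 myeloid markers were already higher in KO than in wild-type cells, with a median of 1.73, while the type I interferon list had a median of -0.23. Of all tested genes, 12.8% were higher on that day. On day 1 the medians were 1.65 and 1.97, and on day 3 they were 1.61 and 1.24. Both lists were lower at high than at zero DOX on day 3, and no test of the difference between the lists was made. Lyz1, a lysozyme gene of the myeloid list, was 4.52 higher in KO zero DOX cells on day 3 (SE 0.43, limma adjusted p = 2.57e-08). The dendritic markers were mixed, with 3 higher and 1 lower of 6.

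Over the 10 groups the members' level orders differed. Irf7 ran from wild type day 0, at a mean of 10.23, to KO zero DOX day 1, at 12.57, and neighbours in that order overlapped at 8 of 9 steps. Irf1 ran from KO day 0 to KO zero DOX day 3, at 13.10, and overlapped at 6 of 9 steps. Irf2 was highest in wild type day 0, at 12.21, and lowest in wild type day 1, at 11.10. The widest range of a set after the inducible Irf4 one was that of Irf4 1421173_at, at 2.35, and the narrowest that of the dim Irf5 set, at 0.31, where all 9 steps overlapped.

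The genes whose 10 group means were most like each member's were found among 4348 tested genes with a range of at least 1 on the log2 scale, by Pearson correlation. Nearest to Irf7 were Ddx60 and Ifi207, both at 0.985, and Zbtb32 at 0.977. Nearest to Irf1 were Pde7b at 0.972 and Trmt1l at 0.965, to Irf2 Tmem71 at 0.987 and Parp4 at 0.984, and to Irf8 Cdh17 at 0.966 and Snx20 at 0.948. For Irf9 it was Brms1l at 0.990, for Irf5 Ggct at 0.945, for Irf3 Ids at 0.919, and for Irf4 1421173_at Taf7 at 0.968. These are descriptions over group means that share arrays, day and genotype.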

How the data were processed

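Each deposited value was the signal intensity of 1 probe set on 1 array, on a linear scale. The authors normalized these intensities with D-Chip, modelling perfect-match probes alone, as the series text states. MAS5 is also named in the submitters' processing notes, with no role given. Of 45101 probe sets, 64 control sets were left out, and 34945 had 1 gene symbol in the platform annotation, which was brought up to date for 34741 of them by Entrez identifier with RefSeq gene names (assembly GRCm38.p6). Arrays hold no read depth, so precision depends on how many there are.

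Here 16 was added and log2 was taken. A set was tested if at least 3 of 30 arrays exceeded the table median of 188.2, which left 26095. With limma 3.58.1 under R 4.3.3, all 30 arrays entered 1 fit of 10 group means (20 residual degrees of freedom), with Benjamini-Hochberg adjustment over all tested sets within each of 17 comparisons. The model was tested on simulated data. For 3 arrays against 3, exact permutation can give no p under 0.1. The members, the gene and marker lists and the tests were chosen with earlier results of these data known. All member sets are reported, and for each member's brightest set not driven by doxycycline the 3 genes of highest correlation were found. List genes named are the 3 with the widest called differences. Same-numbered KO arrays deviated together from their group means (correlations from 0.30 to 0.85), wild-type arrays less so (-0.068 to 0.42) and arrays of different genotype did not consistently (-0.30 to 0.25). Replicate numbers were therefore taken to pair KO arrays only, from these data and not from a label. Promoter sequences are from RefSeq. The marker sums are of intensities over each list's sets. The alternatives were other offsets, scalings, filters, blocks, groups in the fit, array weights, a sex term and left-out arrays.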

Additional observations from a re-analysis of the deposited data

Results flagged for a closer look

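Several member sets responded to activation differently in KO zero DOX and wild-type cells, by limma's test of the difference between the changes. For day 1 minus day 0, the KO change minus the wild-type change was 1.68 for Irf7, 0.86 for Irf4 1421173_at, 0.80 for Irf1, 0.57 for Irf5 1460231_at, 0.55 for Irf5 1449678_at, 0.45 for Irf2, 0.41 for Irf3 1435271_at and 0.28 for Irf8 1416714_at. The limma adjusted p-values lay between 5.36e-05, for Irf7, and 0.0365, for the Irf8 set. With arrays centred on their medians the values of Irf3 1435271_at and Irf8 1416714_at were 0.24 and 0.11 and were no longer called.

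For day 3 minus day 1, the same difference was 0.30 for Irf3 1426111_x_at (limma adjusted p = 0.00711), 0.23 for Irf3 1416898_a_at (limma adjusted p = 0.0234) and -0.51 for Irf5 1449678_at (limma adjusted p = 0.00737). Without the 2 day 1 arrays that go against their labels, Irf3 1416898_a_at was at 0.21 and was not called (limma adjusted p = 0.0566).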

How the results depend on the processing

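Of 122 called differences of single sets, the alternatives gave the same direction and call 2142 times, no call 174 times and the opposite sign once, for Irf5 1460231_at in wild-type day 1 minus day 0 with centred arrays (0.00057, limma adjusted p = 0.995). Of 116 differences not called, 76 alternatives gave a call. Counts of called member sets that moved by over 1.5 times were as follows. With centred arrays, wild-type day 1 minus day 0 gave 6 in place of 11, KO high DOX minus wild type on day 1 gave 5 in place of 3, and the genotype difference of day 3 minus day 1 gave 5 in place of 3. With only the compared groups in the fit, KO minus wild type on day 0 gave 1 in place of 8, high minus zero DOX on day 1 gave 0 in place of 5, and high minus low DOX on day 3 gave 3 in place of 5. Array weights gave 7 in place of 3 for KO high DOX minus wild type on day 1. Without the 2 doubtful day 1 arrays, low minus zero DOX on day 1 gave 1 in place of 0, the set by which those arrays were picked. The causes of these changes were not tested.

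Leaving out 1 array at a time, the counts ranged as follows: 8 to 10 for wild-type day 1 minus day 0, 7 to 9 for wild-type day 3 minus day 1, 9 to 12 for KO day 1 minus day 0 and 5 to 10 for KO zero DOX day 3 minus day 1. For KO minus wild type they were 4 to 10 on day 0, 7 to 9 on day 1 and 8 to 10 on day 3. For high minus zero DOX they were 3 to 6 on day 1 and 8 to 10 on day 3, for low minus zero DOX 0 on day 1 and 5 to 8 on day 3, and for high minus low DOX 3 to 5. For KO high DOX minus wild type they were 2 to 3 on day 1 and 6 to 7 on day 3, for high DOX day 3 minus day 1 they were 8 to 9, and for the genotype differences of the changes 6 to 8 and 2 to 4.

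With the replicate number as a block, KO minus wild type on day 3 gave 10 called sets and high minus zero DOX on day 3 gave 9. The KO-only block, added after seeing the data, changed 4 calls, which stand beside their results or are Irf3 1435271_at in high DOX day 3 minus day 1 (-0.15, limma adjusted p = 0.0435), and no other.

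Centring the arrays moved the share of called sets that were higher: 39.6% as reported and 50.5% centred for wild-type day 1 minus day 0, 59.1% and 42.9% for wild-type day 3 minus day 1, 62.8% and 33.3% for KO zero DOX minus wild type on day 1, 47.8% and 61.4% for high minus zero DOX on day 1, 52.6% and 37.0% for high minus low DOX on day 3, 66.6% and 34.6% for KO high DOX minus wild type on day 1, 64.2% and 34.0% for the genotype difference of day 1 minus day 0, and 38.7% and 70.9% for that of day 3 minus day 1. It shifted the median of all sets by 0.16 and -0.13 in the wild-type comparisons, by -0.14 and -0.12 in the day 1 comparisons with wild type and by -0.17 and 0.15 in the genotype differences of the changes.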
